A study of Mus musculus with 6 samples.

Results

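The data describe Acer1, which encodes alkaline ceramidase 1, and 9 further genes of ceramide metabolism in crypt epithelium of the mouse jejunum, a segment of the small intestine. The arrays came from 3 mice labelled Sox9 deficient (KO 1 to KO 3) and 3 wild type littermates (WT 1 to WT 3), all C57BL/6 and 3 months old, with 1 single-colour array for each mouse. Sox9 is a transcription factor made near the bottom of the crypt, and the study asked which genes it regulates. The labels name neither the allele nor the driver of the deletion, nor which mutant shared a litter with which control. The genes were Acer1, Acer2, Acer3, Asah1, Asah2, Sphk1, Sphk2, Sgpl1, Smpd1 and Smpdl3b, and every probe set annotated with 1 of these symbols alone was taken, which gave 21 of 45037 probe sets. Values are log2 intensities on a scale where the median of an array lay between 2.91 and 2.99. The test took probe sets whose average across the arrays reached 4, which 14 of the 21 probe sets reached, with at least 1 for each of the 10 genes. The group was picked because both Acer1 probe sets read higher in KO, so the Acer1 difference is a description and carries no test.

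Ceramide is the hub of sphingolipid metabolism. Ceramidases split it into a fatty acid and sphingosine, and they are grouped by the acidity at which they work: Asah1 is the acid ceramidase of lysosomes, Asah2 the neutral ceramidase of the intestinal brush border, which takes part in digesting dietary sphingolipids, and Acer1, Acer2 and Acer3 are alkaline ceramidases of the endoplasmic reticulum and Golgi. Sphingosine kinases (Sphk1, Sphk2) turn sphingosine into the signalling lipid sphingosine 1-phosphate, the lyase Sgpl1 destroys it for good, and sphingomyelinases such as Smpd1 release ceramide from membrane sphingomyelin.

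The sequences just upstream of the start sites are shown for Acer1, for Acer3, the alkaline ceramidase that read lower in KO, and for Sphk1. These are the members with a probe set on which the KO and WT arrays did not overlap. Of the several Sphk1 starts, only the 1 whose window held the match marked below is shown. The sequences are 250 bases each, from RefSeq on GRCm38.p6, read 5′ to 3′ on the strand of the gene. In Acer1 and Acer3, capitals mark CpG dinucleotides. In Sphk1, capitals mark CCATTGT, the reverse complement of ACAATGG, a sequence built on the core that SOX proteins are known to bind.
Acer1, chr17:56982127-56982376, minus strand: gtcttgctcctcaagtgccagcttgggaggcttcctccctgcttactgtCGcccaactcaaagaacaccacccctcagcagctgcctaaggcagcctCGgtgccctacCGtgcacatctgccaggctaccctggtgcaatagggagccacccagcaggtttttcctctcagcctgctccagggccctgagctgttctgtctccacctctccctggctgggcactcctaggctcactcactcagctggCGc
Acer3, chr7:98309543-98309792, minus strand: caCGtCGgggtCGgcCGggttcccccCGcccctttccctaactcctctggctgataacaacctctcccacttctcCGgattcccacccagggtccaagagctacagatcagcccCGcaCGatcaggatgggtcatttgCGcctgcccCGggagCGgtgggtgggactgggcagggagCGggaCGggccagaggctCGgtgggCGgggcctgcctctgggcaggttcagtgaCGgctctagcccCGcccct
Acer3, chr7:98321209-98321458, minus strand: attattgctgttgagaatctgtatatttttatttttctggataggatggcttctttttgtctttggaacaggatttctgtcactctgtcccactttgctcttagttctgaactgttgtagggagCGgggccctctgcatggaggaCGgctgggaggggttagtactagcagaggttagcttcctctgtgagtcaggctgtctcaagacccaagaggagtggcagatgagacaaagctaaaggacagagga
Sphk1, chr11:116530850-116531099, plus strand: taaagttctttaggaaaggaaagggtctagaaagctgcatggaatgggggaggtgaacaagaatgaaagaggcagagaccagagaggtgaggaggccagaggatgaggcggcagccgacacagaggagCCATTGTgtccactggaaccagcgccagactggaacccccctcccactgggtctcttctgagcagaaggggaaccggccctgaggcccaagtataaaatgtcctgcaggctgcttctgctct

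The Acer1 window held 4 CpG dinucleotides at 61.6% G and C, against 17 at 68.4% in one Acer3 window, 2 at 46.8% in the other, and 24 at 73.2% in the Acer2 window. The median over 32851 windows of the same length was 6 CpG. RefSeq windows were at hand for 9 of the 10 genes, 15 windows in all. ACAAT on either strand was in 1 of the 15, the Sphk1 window above, and in 27.7% of all windows. The longer ACAATGG, which contains ACAAT, lay there too, starting 122 bases before the start site, and was in 3.02% of all windows. AACAAT, which also contains ACAAT, was in 0 of the 15 and in 9.42% of all windows. GGGCGG, the GC box, was in 6 of the 15 and in 32.7% of all windows. These are matches of letters and say nothing about binding.

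Acer1 read higher on all 3 KO arrays than on any WT array, on both of its probe sets. The brighter, 1439183_at, read 9.13, 8.54 and 8.78 in the mutants KO 1 to KO 3, and 7.90, 7.66 and 7.74 in the controls WT 1 to WT 3. The lowest KO array stood 0.64 above the highest WT array. Mutants averaged 8.81 ± 0.30 and controls 7.77 ± 0.12 (SD, n = 3 each). KO exceeded WT by 1.05 ± 0.21 (SE), which is 2.07-fold.

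The dimmer Acer1 probe set, 1450825_at, read 5.49, 5.90 and 6.18 in the mutants and 4.14, 3.63 and 3.94 in the controls, in the same order. Mutants averaged 5.86 ± 0.35 and controls 3.91 ± 0.26 (SD, n = 3 each). KO exceeded WT by 1.95 ± 0.25 (SE), and the mean of both probe sets differed by 1.50. The WT mean of 3.91 lay under the filter of 4, close to the floor where GCRMA compresses values, so no fold is given, and this probe set passed the filter only through its KO arrays. On both probe sets the WT arrays kept the order WT 1, WT 3, WT 2 from high to low. The KO arrays did not: KO 1 was the highest mutant on the brighter probe set and the lowest on the dimmer one. With any array left out the difference stayed between 0.89 and 1.19 on the brighter and between 1.79 and 2.14 on the dimmer probe set.

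**Figure D1:**
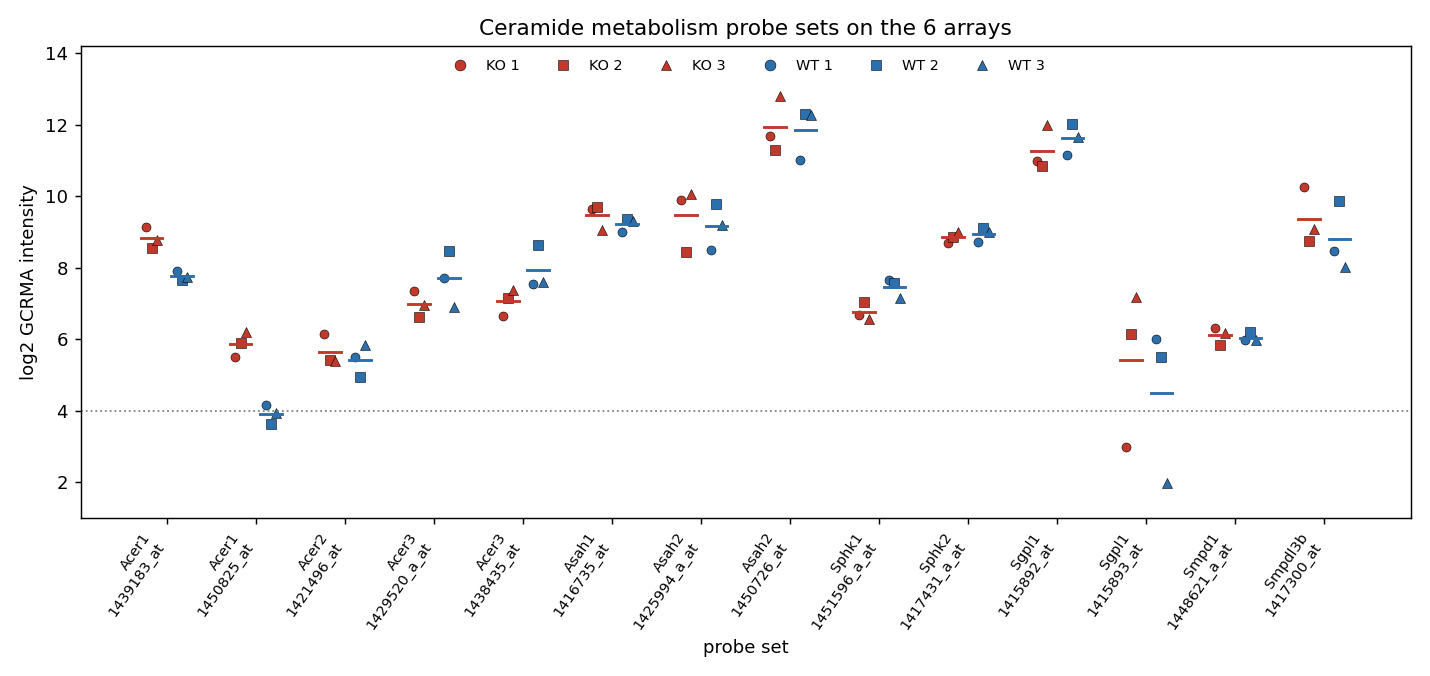
Log2 GCRMA intensity (vertical axis) of the 14 tested probe sets on the 3 KO (red) and 3 WT (blue) arrays. Bars are group means and the dotted line is the filter at 4. Both Acer1 probe sets have all KO arrays above all WT arrays, while 1 Acer3 and 1 Sphk1 probe set show the opposite order.

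Markers of Paneth cells averaged lower in every KO mouse than in every WT mouse. Those of villus enterocytes averaged higher in every KO mouse, but their summed levels overlapped. In bulk tissue, more cells of a type and more RNA per cell cannot be told apart. Of 10 villus enterocyte markers, 9 were on the array and all 9 were above the filter, with a mean of 13.33 to 13.45 in KO and 12.51 to 13.13 in WT, but their log2 summed levels overlapped, at 17.19 to 17.61 and 16.74 to 17.47. The means overlapped too without Ada, left out after its values were seen, at 13.71 to 14.14 in KO and 13.11 to 13.88 in WT, and of the 9 markers 6 differed upward and 3 downward, with Fabp2 at -0.01, Anpep at -0.08 and Mttp at -0.31. The 6 measured of 8 Paneth cell markers averaged 11.52 to 12.41 in KO and 13.00 to 13.58 in WT, with summed levels of 16.75 to 17.19 and 17.38 to 17.70. Mmp7 differed most, by -4.71, then Nupr1 by -1.17, Lyz1 by -0.75, Pla2g2a by -0.72 and Itln1 by -0.58. Ang4 differed by 0.06, and Nupr1, Pla2g2a and Ang4 had overlapping groups. Paneth cell means without Mmp7 were not taken, although enterocyte means without Ada were. Whether the Paneth cell means would still part the groups without Mmp7 is therefore not given here, and the lists were not treated alike. Of 10 leukocyte markers 9 were above the filter, with means of 7.20 to 8.42 in KO and 5.91 to 7.56 in WT and summed levels of 13.48 to 14.67 and 14.06 to 14.61. Of these 9, only Lyz2, the brightest, differed downward, by -1.13. The others differed upward, from 0.01 for Cd8a to 2.54 for Jchain, and among them only Ptprc had groups that did not overlap. The part of enterocytes, Paneth cells and leukocytes in the Acer1 difference was not tested.

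Acer1 is best known from the epidermis, and the markers of squamous epithelium were mostly dim. Of 8 such markers on the array only Krt10 and Lor were above the filter, while Krt5, Krt14, Krt1, Flg, Ivl and Trp63 stayed at or under 3.49 on every array. Summed levels of this list were 7.41 to 7.96 in KO and 7.76 to 7.91 in WT. All 10 markers of crypt epithelium were above the filter, 7 of 7 goblet cell markers were too, and 1 of 9 markers of stroma and vessels was. Summed levels of stroma and vessel markers were 7.77 to 8.20 in KO and 7.66 to 8.53 in WT. The Sox9 probe set that parts the groups, 1451538_at, read 2.42 to 2.75 in KO and 5.84 to 7.61 in WT (limma adjusted p = 0.188). Its KO arrays lay under the array medians of 2.91 to 2.99. It passed the filter only through its WT arrays, so nothing is read from that p. Its position relative to the deletion is not known here. A second tested Sox9 probe set, 1424950_at, read 5.33 to 6.34 in KO and 2.68 to 6.23 in WT, a difference of 1.05 with overlapping groups, and a dim one, 1433889_at, read 3.16 to 3.28 and 3.18 to 3.53.

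Acer3, an alkaline ceramidase that prefers unsaturated ceramides, read lower in KO on average on both of its tested probe sets, opposite to Acer1. On 1438435_at the KO arrays read 6.66, 7.16 and 7.38 and the WT arrays 7.55, 8.63 and 7.58. The groups did not overlap, with 0.17 between KO 3 and WT 1. The difference was -0.85 ± 0.36 (SE), with a 95% interval of -1.71 to -0.0018, and it missed the threshold over all probe sets (limma adjusted p = 0.999). WT 2 stood far above the other controls, and without it the difference was -0.50.

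On the other tested Acer3 probe set, 1429520_a_at, the arrays read 7.34, 6.61 and 6.95 in KO and 7.72, 8.46 and 6.91 in WT. The groups overlapped there, since WT 3 lay below KO 1 and KO 3. The difference was -0.73 ± 0.42 (SE; limma adjusted p = 0.999), and it was -0.34 without WT 2 and -1.12 without WT 3. The 2 dim Acer3 probe sets stayed between 2.86 and 3.32 on all arrays and were not tested.

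Acer2, the alkaline ceramidase of the Golgi, read 6.14, 5.41 and 5.37 in KO and 5.50, 4.94 and 5.83 in WT on 1421496_at. KO 1 was the highest and WT 2 the lowest array, with the others mixed. The difference of 0.22 had a 95% interval of -0.55 to 0.98 and turned to -0.029 without KO 1 and to -0.023 without WT 2. The second Acer2 probe set lay between 3.35 and 3.53 and was not tested.

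Asah1, the lysosomal acid ceramidase, has 1 probe set, which read 9.65, 9.70 and 9.04 in KO and 9.01, 9.37 and 9.31 in WT. KO 3 lay among the controls, and the difference of 0.23 had a 95% interval of -0.34 to 0.81. It ran from 0.11 without KO 2 to 0.44 without KO 3.

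Asah2, the brush border ceramidase, varied more between mice than between genotypes. Its brightest probe set, 1450726_at, read 11.67, 11.30 and 12.81 in KO and 11.02, 12.29 and 12.25 in WT. KO 3, WT 2 and WT 3 were high and WT 1 was low, so both groups spanned more than 1 log2 unit and overlapped. The difference was 0.07 (95% interval -1.14 to 1.28), and it turned to -0.37 without KO 3 and to -0.35 without WT 1. On 1425994_a_at the KO arrays read 9.89, 8.45 and 10.06 and the WT arrays 8.49, 9.77 and 9.19, a difference of 0.32 (95% interval -0.92 to 1.55), or -0.010 without WT 1. There KO 1 joined the high arrays, which it did not on the brightest probe set. The remaining Asah2 probe set read 2.15 to 3.07 in KO and 2.86 to 3.84 in WT, under the filter.

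The log2 summed level of the villus enterocyte markers had a similar order over the arrays. It was 17.61 on KO 3, 17.47 on WT 2 and 17.28 on WT 3, then 17.21 on KO 2, 17.19 on KO 1 and 16.74 on WT 1, so the 3 arrays highest for Asah2 on 1450726_at were also the 3 highest for these markers. The mean of these markers gave another order. KO 2, KO 1 and KO 3 were highest at 13.45, 13.44 and 13.33. WT 2, WT 3 and WT 1 followed at 13.13, 13.10 and 12.51. Without Ada the mean ran KO 3, WT 2, KO 2, WT 3, KO 1 and WT 1 from high to low. The part of enterocyte content in Asah2 was not tested.

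Sphk1, the cytosolic sphingosine kinase, read lower on every KO array than on every WT array. Its tested probe set, 1451596_a_at, read 6.67, 7.03 and 6.57 in KO and 7.64, 7.58 and 7.16 in WT. The gap between the groups was 0.12, between KO 2 and WT 3. The means were 6.75 ± 0.24 and 7.46 ± 0.27 (SD, n = 3 each), and the difference of -0.70 ± 0.22 (SE), with a 95% interval of -1.24 to -0.17, missed the threshold over all probe sets (limma adjusted p = 0.999). It stayed between -0.86 and -0.61 with any array left out. The second Sphk1 probe set lay between 2.24 and 2.44 and was not tested.

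Sphk2, the other sphingosine kinase, was even across the mice. It read 8.70, 8.86 and 9.00 in KO and 8.72, 9.12 and 9.00 in WT on 1417431_a_at. The 95% interval of its difference of -0.10 was -0.55 to 0.36, so a shift as large as 1 log2 unit lay outside it. The second Sphk2 probe set, 1426230_at, lay between 2.39 and 2.41 and was not tested.

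Sgpl1, which cleaves sphingosine 1-phosphate irreversibly, gave 2 probe sets that disagreed. On 1415892_at it read 10.98, 10.84 and 11.99 in KO and 11.15, 12.03 and 11.65 in WT. KO 3, WT 2 and WT 3 were the 3 highest arrays, as for Asah2. The difference was -0.34 (95% interval -1.24 to 0.56), or -0.70 without KO 3 and -0.13 without KO 2.

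On the second Sgpl1 probe set, 1415893_at, KO 1 read 2.97 and WT 3 read 1.97, while KO 2, KO 3, WT 1 and WT 2 read 6.14, 7.17, 6.01 and 5.50. KO 1 thus read near the array medians of 2.91 to 2.99 and WT 3 under them, although the first probe set read 10.98 and 11.65 in these mice. The difference of 0.93 had a 95% interval of -2.43 to 4.29, and it was -0.33 without WT 3 and 2.16 without KO 1. The mean of both Sgpl1 probe sets differed by 0.29.

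**Figure D2:**
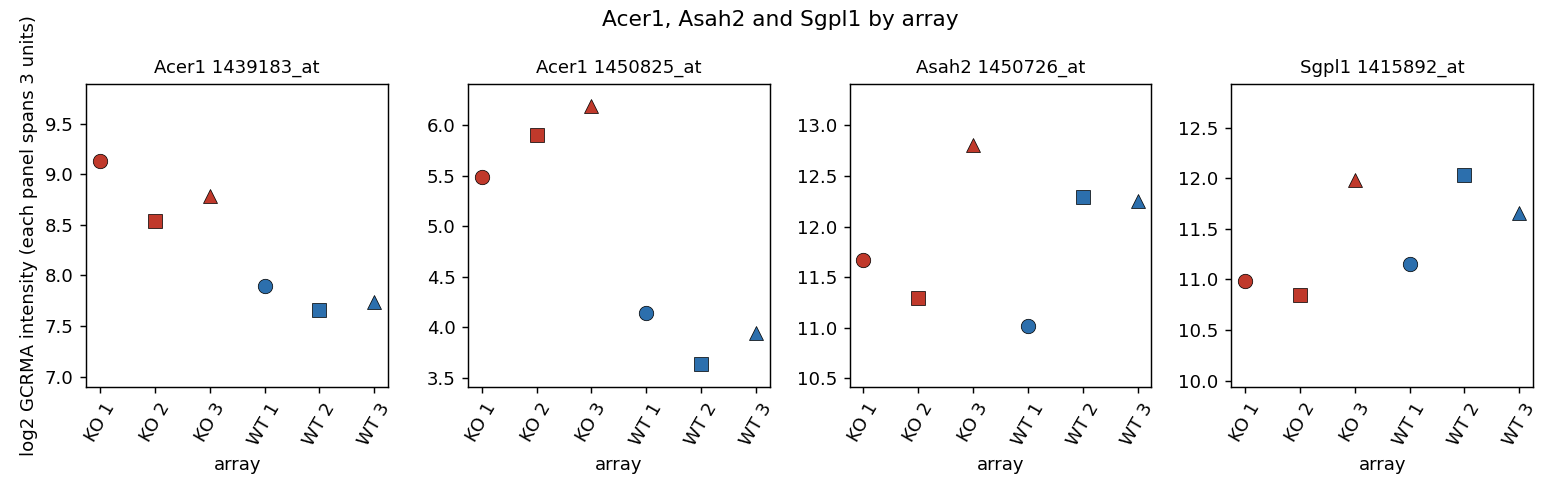
Log2 GCRMA intensity (vertical axis, each panel spanning 3 units) by array for both Acer1 probe sets, the brightest Asah2 probe set and the brighter Sgpl1 probe set. Acer1 parts KO from WT, whereas for Asah2 and Sgpl1 the high arrays are KO 3, WT 2 and WT 3.

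Smpd1, the lysosomal sphingomyelinase, read 6.32, 5.84 and 6.18 in KO and 5.97, 6.19 and 5.97 in WT on 1448621_a_at. The arrays of both groups lay within 0.47 of each other. The difference was 0.07 (95% interval -0.40 to 0.54), and -0.033 without KO 1. A second, dim Smpd1 probe set read 3.25 to 3.37 in KO and 3.37 to 3.77 in WT.

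Smpdl3b, a membrane-anchored relative of the acid sphingomyelinase, read 10.26, 8.74 and 9.09 in KO and 8.47, 9.88 and 8.01 in WT. KO 1 and WT 2 were high and the other mice lay between 8.01 and 9.09. The difference of 0.58 had a 95% interval of -0.82 to 1.98, and it was 0.13 without KO 1 and 1.12 without WT 2.

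**Figure D3:**
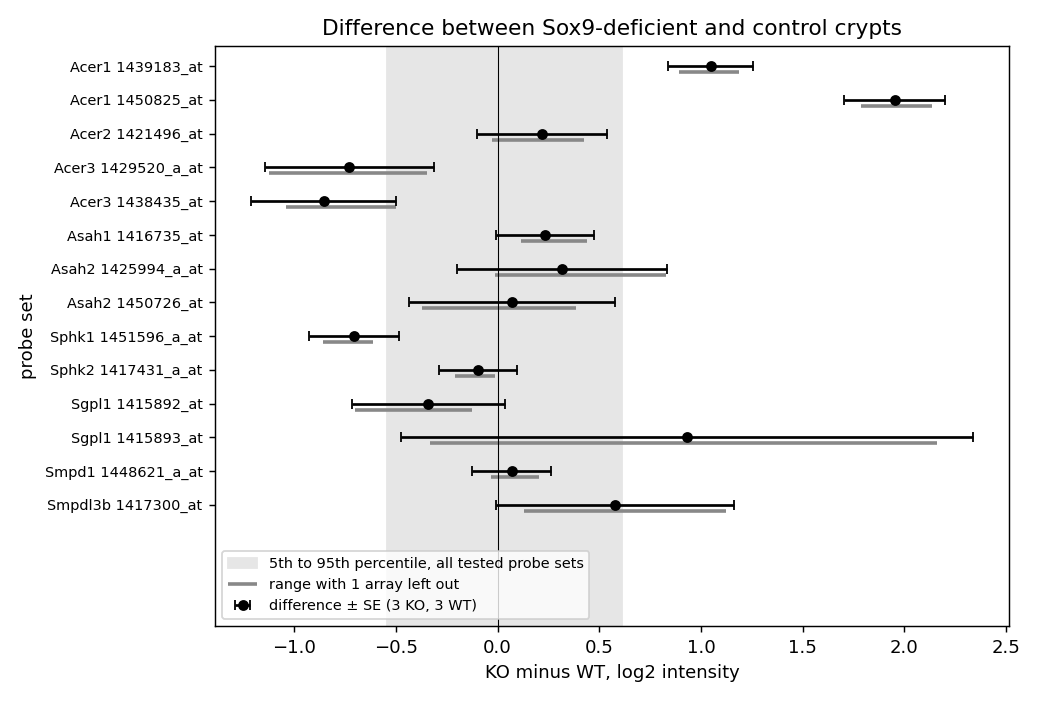
Difference KO minus WT in log2 intensity (horizontal axis) for the 14 tested probe sets, as points with their SE. Grey lines give the range with 1 array left out and the shaded band the 5th to 95th percentile of all 18108 tested probe sets, -0.54 to 0.61. Both Acer1 probe sets and the dimmer Sgpl1 probe set lie right of the band, and both Acer3 probe sets and Sphk1 lie left of it.

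Of the 12 tested probe sets of the 9 genes other than Acer1, 0 passed an adjusted p of 0.05 in limma, and each had an adjusted p of 0.999. Over all 18108 probe sets 0.0110% passed. At an unadjusted p under 0.05 there were 2 of 12, both lower in KO, 1 of Acer3 and that of Sphk1, against 3.62% of all probe sets in either direction and 1.81% lower in KO. That count was 0 without KO 3 or WT 2, 1 without KO 1, KO 2 or WT 1, and 3 without WT 3. All mutants lay below all controls in the same 2 of 12, against 4.03% of all tested probe sets, and in the other 10 the groups overlapped. With both Acer1 probe sets, all mutants lay above all controls in 2 of 14 (5.09% of all tested probe sets), from which nothing is read because they chose the group. The median difference over the 12 was 0.07, against 0.03 over all tested probe sets.

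The other genes of sphingolipid metabolism were taken as 4 lists of 59 genes, of which 53 had a probe set of their own and 41 a tested one. Of 70 tested probe sets 0 passed an adjusted p of 0.05 in limma, either higher or lower, and 2 had an unadjusted p under 0.05, both higher in KO, against 3.62% of all probe sets in either direction and 1.81% higher in KO, so the share in the lists was near that of all probe sets. The groups did not overlap in 2 of 70, both higher in KO, against 9.12% of all tested probe sets in either direction. The median difference was 0.04.

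Both probe sets at an unadjusted p under 0.05 belonged to Cers4, a ceramide synthase that joins a fatty acid to the sphingoid base, the reverse of what a ceramidase does. On 1417780_at it read 9.42, 9.04 and 8.43 in KO and 7.75, 7.28 and 8.14 in WT, so every KO array lay above every WT array. The difference was 1.24 ± 0.33 (SE), with a 95% interval of 0.44 to 2.04 (limma adjusted p = 0.999). On 1417781_at the order was nearly the same, with KO 3 at 6.48 just under WT 3 at 6.49, and the difference was 0.89. The remaining, dim Cers4 probe set read 5.17 on KO 1, 3.88 on KO 2 and 3.07 to 3.37 on the other 4 arrays. On all 3 probe sets KO 1 was highest and KO 3 lowest of the mutants.

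The whole ceramide synthesis list had a median difference of -0.08 over 19 tested probe sets, and without Cers4, left out after its values were seen, -0.13 over 17, with 4 positive and 13 negative. The lowest was Sptlc2 on 1454257_at at -0.71, where KO 1 read 3.32 and KO 3 read 6.11 against 5.08 to 5.53 in WT, while its other tested probe sets differed by -0.17 and 0.22. Sptlc1, a subunit of the serine palmitoyltransferase that starts the pathway, differed by -0.40 on 1436726_s_at (-0.17 without WT 2) and by -0.08 on 1422690_at. Degs1, the desaturase of the last step, differed by 0.26 on 1423345_at (0.14 without KO 1) and by -0.02 on 1423346_at. Both had overlapping groups.

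Among genes that make, split or move sphingomyelin, 17 tested probe sets had a median difference of -0.01 and the groups overlapped in all 17. Smpdl3a, another relative of the acid sphingomyelinase, differed by -0.47, or by -0.08 without WT 2, which read 12.55 where the other 5 arrays read 11.18 to 11.42. Cert1, which carries ceramide to the Golgi, differed by 0.31 on 1420383_a_at (0.14 without KO 3), but by -0.07 on its brightest probe set and by -0.08 on another. Sgms1, a sphingomyelin synthase, differed by 0.38 on 1426575_at, and by -0.030 without WT 3, while its other tested probe sets differed by 0.07 and -0.01.

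Glycosphingolipid genes had a median difference of 0.20 over 21 tested probe sets, with 15 positive and 6 negative. The galactosyltransferase gene B4galt6 read 7.85, 7.21 and 7.36 in KO and 6.32, 6.96 and 7.10 in WT on 1423228_at, which made it the second pathway probe set whose groups did not overlap. Its difference was 0.68 (95% interval -0.00034 to 1.36, limma adjusted p = 0.999; 0.44 without WT 1), and its other tested probe sets differed by 0.20 to 0.39 with overlapping groups. Psap, the precursor of the saposins that help lysosomal enzymes reach their lipids, differed by 0.60 on 1421813_a_at (0.37 without KO 3) and by 0.29 on its brighter probe set. Ugcg, which adds glucose to ceramide, differed by 0.70 on 1421268_at (0.37 without KO 3, 1.06 without KO 1) and by 0.16 to 0.62 on its other probe sets.

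Genes that handle phosphorylated sphingoid bases had a median difference of 0.18 over 13 tested probe sets, all with overlapping groups. Sgpp1, a phosphatase that turns sphingosine 1-phosphate back into sphingosine, differed by 0.86 on 1450015_x_at (0.49 without WT 3), while its other 2 probe sets differed by 0.05 and -0.0026. Plpp3, a lipid phosphate phosphatase, differed by 0.53 on 1429514_at (0.81 without WT 3) and by 0.55 on its other tested probe set. Spns2, which exports sphingosine 1-phosphate from cells, differed by -0.50 (-0.27 without WT 2).

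**Figure D4:**
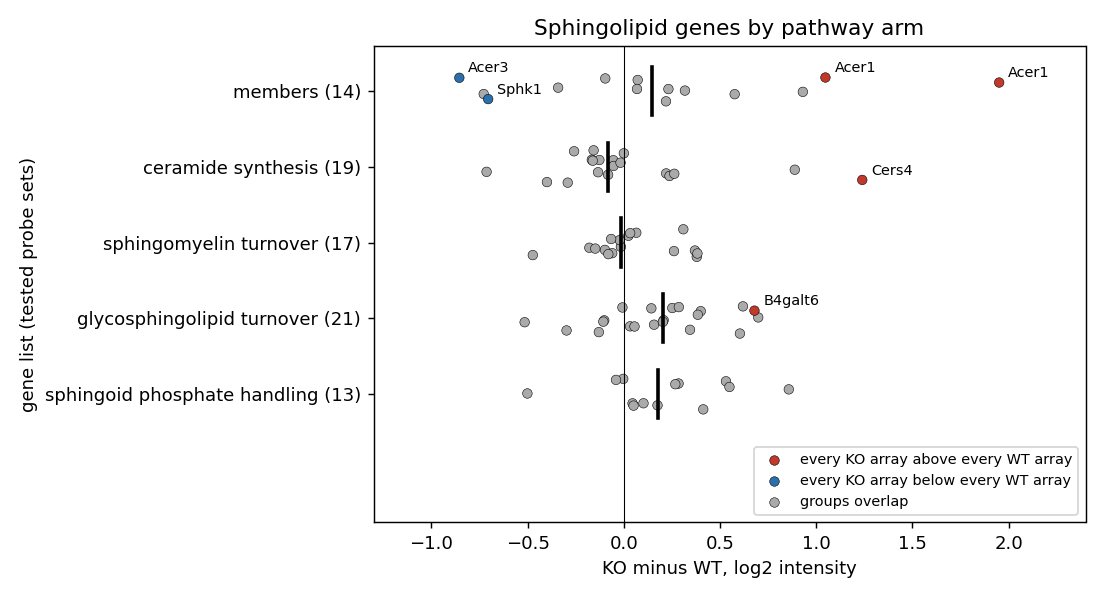
Difference KO minus WT in log2 intensity (horizontal axis) for each tested probe set of the 10 genes and of the 4 pathway lists, with list medians as black bars. Red and blue points are probe sets whose KO arrays all lay above or below the WT arrays, and outside the 10 genes these are Cers4 and B4galt6.

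The genes whose pattern over the 6 arrays was most like the brighter Acer1 probe set were taken from 6398 probe sets with a range of at least 1 log2 unit. They were Gtf2b (Pearson r = 0.995), Cblif (0.981), Gimap1 (0.981), Zfas1 (0.979) and Nod1 (0.973), each over 6 arrays that share the split into KO and WT. Gtf2b, which encodes general transcription factor IIB, read 10.84, 10.40 and 10.56 in KO and 9.89, 9.85 and 9.81 in WT. Zfas1, a non-coding RNA, differed by 0.91 and Nod1, a sensor of bacterial peptidoglycan, by 0.90. The WT means of Cblif and Nod1, 3.38 and 3.88, lay under the filter of 4, so both passed it only through their KO arrays. When the group means were removed, the closest were Car12, Gm3336, Kyat3 and Siva1 (r = 0.999, 0.999, 0.996 and 0.995), a likeness which this choice fixes. Between the groups Car12 differed by -2.33, Gm3336 by -0.22, Siva1 by -0.22 and Kyat3 by 0.75.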

How the data were processed

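Per the submitters' processing notes, the authors made the deposited log2 intensities with GCRMA and used limma; their versions, the settings and the genome build are not stated in the labels. GCRMA pulls dim probe sets toward a common floor, which compresses differences there. Of 45101 probe sets, 64 array controls were left out, and 0 columns of other samples were present. Symbols came from the platform annotation, and all 131 probe sets of the lists matched RefSeq (GRCm38.p6) by gene identifier, with 0 symbols changed.

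The difference KO minus WT was fitted over the 18108 probe sets whose average reached 4, with limma 3.58.1 in R 4.3.3 (lmFit, eBayes, two-sided, Benjamini-Hochberg over all of them). It had 4 residual and 2.59 prior degrees of freedom, and was tested on simulated data. P-values measure the spread between these 6 mice, and precision is limited by having 3 arrays in each group. With 3 against 3, the smallest p of an exact two-sided permutation test is 0.1. Members and lists were chosen with earlier results of these data known. All probe sets of the members are described, though not all by identifier. So are the up to 3 genes of smallest p in each pathway list and the 5 probe sets most like Acer1 by each measure. Markers used the brightest probe set of a gene: means cover markers above the filter, and summed levels are the log2 of summed linear intensities. Motifs were searched in the 250 bases before each RefSeq start.

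The fit was repeated with each array left out, with array weights, with a replicate block, with quantile normalization or median centring, with a robust trended prior, and with the filter at 6 or dropped. Probe sets of a gene were also averaged. Their use on the named pathway genes and Sox9 was added after seeing the data.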

Additional observations from a re-analysis of the deposited data

How the results depend on the processing

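In limma, 0 probe sets of the 9 genes other than Acer1 and 0 of the pathway lists were called under each of the 13 alternatives that refit the table. The tested sets changed with the filter. For the 9 genes 19 probe sets were tested without a filter and 10 with it at 6, against 12. For the lists these were 110 and 58, against 70, and 69 without WT 3. Over all tested probe sets these refits called only 0 to 16, so counts of 0 were close to fixed in advance and nothing is read from them. Under the replicate block the counts were also 0. In deviations from group means, same-numbered KO and WT arrays correlated at -0.05, -0.29 and 0.03, and arrays of unlike number at -0.10 to 0.16. With 3 arrays in each group, these values cannot show whether shared numbers paired the mice. Both Acer1 differences stayed positive under each alternative that kept the probe set, and the filter at 6 dropped the dimmer one. Nothing is read from that sign. Acer1 was chosen for it, and with groups that do not overlap, leaving out or weighting arrays cannot turn it. The mean of the probe sets moved the brighter one from 1.05 to 1.50. The Sox9 difference on 1451538_at stayed between -4.25 and -3.88 where that probe set passed the filter, which it did not without WT 1 or with the filter at 6. Nothing is read from that range either, since its KO arrays lay at the floor and the groups do not overlap.

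Differences of Acer2, Asah2, Sgpl1, Smpd1 and Sgms1 changed sign under some alternatives. With array weights Acer2 stood at -0.0031 and Smpd1 at -0.025, and with the mean of its probe sets Sgpl1 stood at 0.29 where its brighter probe set gave -0.34. With single arrays left out, Acer2 ran from -0.029 to 0.42, Asah2 from -0.010 to 0.83 on 1425994_a_at and from -0.37 to 0.39 on 1450726_at, Sgpl1 from -0.33 to 2.16 on 1415893_at (0.93 with all arrays), Smpd1 from -0.033 to 0.20 and Sgms1 from -0.030 to 0.69. The cause was not tested. Signal over background limits the 7 member probe sets under the filter and the WT arrays of the dimmer Acer1 probe set. It also limits KO 1 and WT 3 on Sgpl1 1415893_at and the KO arrays on Sox9 1451538_at.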
